A study of Mus musculus with 20 samples.

Results

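The deubiquitinase genes of the mouse cerebellum other than Atxn3 were followed in mice that carry an expanded repeat in Atxn3, the gene of ataxin-3, which is itself a deubiquitinase. Members were chosen by gene name alone, as protein-coding rows of the count table with a symbol of the Usp, Otud, Otub or Uchl series or with the symbol Josd1, Josd2, Bap1 or Cyld. This gave 66 genes of 29200 rows, of which 60 had a mean of at least 50 counts and were tested among 12153 genes. The tested genes comprised 44 of the ubiquitin-specific protease (USP) series, 9 of the ovarian tumour (OTU) series, 4 of the ubiquitin C-terminal hydrolase (UCH) family including Bap1, the Josephin genes Josd1 and Josd2, and Cyld. Cyld was set apart by its symbol and not by its fold. Usp6nl meets the rule by its symbol, but it is known as a GTPase-activating protein for Rab proteins and not as a deubiquitinase, so that 59 tested genes remain without it; it was called in no comparison. The question was whether the RNA of other deubiquitinases changes when ataxin-3 is expanded.

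Ubiquitin is a small protein that is attached to other proteins singly or in chains, and the chains mark proteins for the proteasome, for endosomal sorting, for autophagy or for signalling. Deubiquitinases cut ubiquitin off again, each with its own preference for chain types and substrates. Most are cysteine proteases, grouped by the fold of their catalytic domain into the USP, OTU, UCH and Josephin families, and ataxin-3 belongs to the Josephin family together with Josd1 and Josd2. In neurons they are best known for trimming chains at the proteasome, for the recycling of ubiquitin and for the turnover of synaptic proteins.

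The groups held 5 mice each, WT/WT or 304Q/304Q, aged 2 or 12 months, all males on the C57BL6/N strain, with WT/WT littermates as controls. In 304Q/304Q mice both copies of Atxn3 carry a long interrupted repeat of CAA and CAG codons, placed at the natural locus with zinc-finger nucleases, so that no transgene promoter is involved. All 304Q/304Q mice descend from 1 founder line, a limit of the model. Each library holds polyA-selected RNA of the cerebellum of 1 mouse. In such bulk samples fewer cells of a type and less RNA per cell cannot be told apart.

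Between 11385380 and 27636687 reads per library were counted on genes. The values below are normalized counts, that is counts scaled to the mean library by the TMM method, and a gene was called where its p in edgeR's quasi-likelihood test, adjusted by Benjamini and Hochberg over all 12153 genes, did not exceed 0.05. Markers of Purkinje cells, granule cells, astrocytes and Bergmann glia, oligodendrocytes and interneurons were present in every library, while the midbrain gene Slc6a3 was at 0 in most. At 12 months 4 of 5 Purkinje markers, 3 of 5 oligodendrocyte markers and 3 of 5 interneuron markers were lower in 304Q/304Q mice, with summed oligodendrocyte markers of 67621 to 76993 for WT/WT and 43262 to 61023 for 304Q/304Q. The sums were 76453 to 86960 and 62958 to 69455 for the Purkinje list, and 23497 to 26811 and 18833 to 20955 for the interneuron list. Of the glial list 2 of 5 genes and of the blood list 2 of 3 were lower, 1 of 5 microglial genes was higher, and no granule cell gene was called. Of the midbrain list 1 of 2 tested genes, Th, was lower, and the sums were 326 to 412 for WT/WT and 185 to 284 for 304Q/304Q. At 2 months the summed oligodendrocyte markers were 72563 to 83986 for WT/WT and 62444 to 71174 for 304Q/304Q. These did not overlap either, though no oligodendrocyte marker was called. The Purkinje and interneuron sums overlapped at that age. The part of these shifts in the results below was not tested. Choroid plexus markers summed to between 5742 and 29821 in 6 libraries and to at most 431 in the others. The 6 were 1 of the 2-month 304Q/304Q, 3 of the 12-month WT/WT and 2 of the 12-month 304Q/304Q mice. Muscle markers reached 2295 in replicate 5 of the 12-month 304Q/304Q mice against at most 127 in the other 19, with Myh4 at 0 in most libraries. Atxn3 itself differed by -0.54 ± 0.11 on the log2 scale at 2 months (adjusted p = 0.0916) and by -0.13 ± 0.12 at 12 months (adjusted p = 0.51), so neither passed.

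The cerebellum expressed the deubiquitinases over a wide range of levels. Per kilobase of exon, Uchl1, a ubiquitin hydrolase that is among the most abundant proteins of neurons, stood highest with 1196 normalized counts per kilobase over all mice, followed by Otub1, which holds back ubiquitin-conjugating enzymes, with 874. Usp22, the deubiquitinase of the SAGA transcription coactivator, had 618 per kilobase, Usp5, which takes apart free ubiquitin chains, had 546, and Bap1, which removes ubiquitin from histone H2A, had 437. The lowest of the tested genes was Usp29, at 17 per kilobase, with 307 normalized counts over 18078 bases. By counts alone Usp27x was the lowest of the tested genes, at 90.7. The exon length joins all annotated exons of a gene, so it can exceed the length of any transcript. The lowest of all per kilobase was Usp44, a histone and mitotic checkpoint deubiquitinase, at 0.159. Josd1 and Josd2, the nearest relatives of ataxin-3 among the members, lay next to each other at 271 and 274 per kilobase. Together the 66 genes took between 0.432% and 0.480% of all counts of a mouse. At 2 months their share averaged 0.444% ± 0.00692 for WT/WT and 0.449% ± 0.0120 for 304Q/304Q, and 0.450% ± 0.00292 and 0.459% ± 0.0139 at 12 months (SD, n = 5), and the groups overlapped at both ages.

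**Figure D1:**
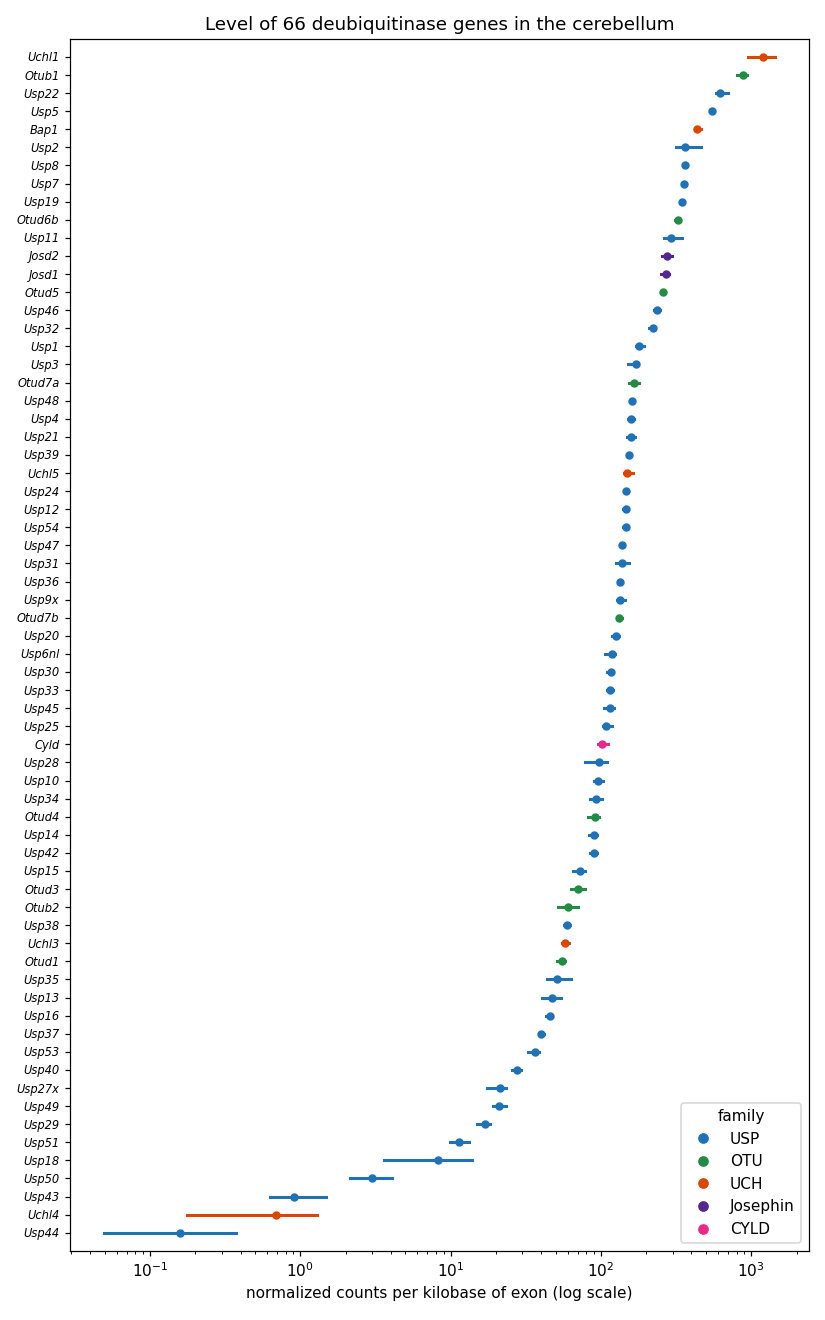
Level of the 66 deubiquitinase genes in normalized counts per kilobase of exon on a log scale, with the mean over 20 mice as a point, the range of the 4 group means above 0 as a line and the family as colour. Cyld is set apart by its symbol. Uchl1 at 1196 and Otub1 at 874 stand at the top, and 6 genes from Usp51 down to Usp44 lie below every tested gene.

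The members varied little between mice of a group. Their median coefficient of variation within groups was 7.81%, against 10.2% for all genes tested, and their median of 940 normalized counts lay above the 481 of all genes tested. Otud7b, which acts on NF-kB signalling, varied least at 3.95%, and Otud3 most at 21.1%. The median standard error of a log2 fold change at 12 months was 0.08. Their joined exons were longer than those of all genes tested, with a median exon length of 6543 against 4741 bases, and their GC content was lower, with medians of 48.3% and 50.2%.

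At 2 months no deubiquitinase passed the test between the genotypes. None of the 60 genes was called in edgeR's quasi-likelihood test, where 0.0494% of all genes tested were, and none was called by DESeq2. An unadjusted p under 0.05 was reached by 4 members (6.67%), Usp11, Uchl1, Usp21 and Usp2, against 5.55% of all genes tested. No member had genotype groups that did not overlap, against 1.05% of all genes tested. The log2 fold changes ran from -0.20 for Usp31 to 0.21 for Uchl1, and the 95% interval of every tested member stayed within 0.5 on both sides of 0. Intervals here and below rest on a normal approximation, and are somewhat narrower than the quasi-likelihood test would give.

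At 12 months 8 of the 60 deubiquitinases were called, 4 higher and 4 lower in 304Q/304Q mice. Usp13, Usp11, Usp29 and Usp22 rose, and Usp2, Usp28, Josd2 and Usp10 fell. This is 13.3% of the members, against 12.5% of all genes tested, so the share lay near the background. The 4 that rose are 6.67% of the members, where 5.23% of all genes were called higher, and the 4 that fell stand against 7.3% of all genes called lower. Usp2 alone also reached 0.5 in size on the log2 scale, a rule met by 3.09% of all genes tested. The groups did not overlap for 6 members (10%), Usp11, Usp13 and Usp35 above and Usp2, Josd2 and Usp10 below, against 8.94% of all genes tested. The median log2 fold change of the members was 0.07, against -0.00386 over all genes tested, with 38 members positive and 22 negative. For 55 of the 60 the 95% interval lay within 0.5 on both sides of 0, and the others were Usp2, Usp13, Usp35, Usp27x and Otud1.

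**Figure D2:**
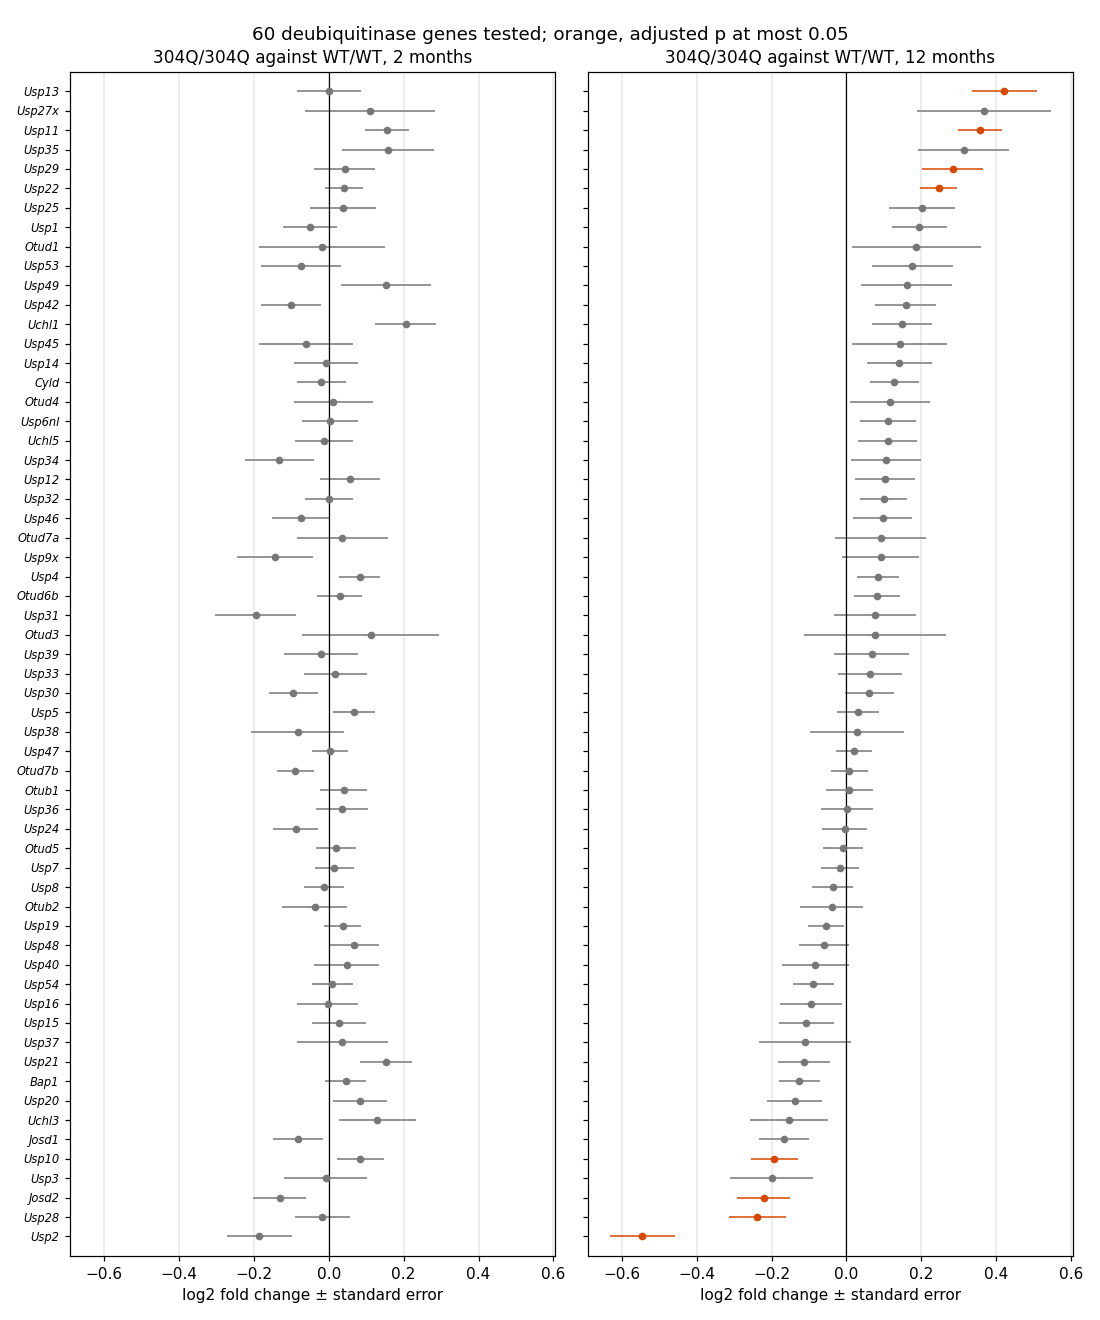
Log2 fold change of 304Q/304Q against WT/WT mice for the 60 deubiquitinase genes tested, at 2 months on the left and at 12 months on the right, ordered by the 12-month value, with bars of 1 standard error and called genes in orange. No gene is called at 2 months and 8 are at 12 months, from Usp2 at -0.55 to Usp13 at 0.42.

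Usp2, Usp11, Usp13 and Usp22 were called in each of 30 alternative fits of the 12-month comparison. Alternatives that left out a mouse from outside a comparison kept all its libraries. Here and below they change little but the shared estimate of the spread. The promoter windows of Usp2, Usp11 and Usp13 are shown because the results turn on these genes. The windows come from RefSeq on GRCm38.p6 and span 250 bases before a transcript start and 50 from it on, at chr9:44084670-44084969, chrX:20703659-20703958 and chr3:32817376-32817675, all on the plus strand. That of Usp2 lies inside the gene (chr9:44067021-44095627 in GENCODE M21), at a downstream start. Usp22 (chr11:61151785-61175055, minus strand) had no window. Both strands were searched for the E-box CACGTG, through which clock factors and others bind, and for TGACGT, the core of the cyclic AMP response element, and capitals mark the matches. The motifs overlapped in none of the windows shown.
Usp2: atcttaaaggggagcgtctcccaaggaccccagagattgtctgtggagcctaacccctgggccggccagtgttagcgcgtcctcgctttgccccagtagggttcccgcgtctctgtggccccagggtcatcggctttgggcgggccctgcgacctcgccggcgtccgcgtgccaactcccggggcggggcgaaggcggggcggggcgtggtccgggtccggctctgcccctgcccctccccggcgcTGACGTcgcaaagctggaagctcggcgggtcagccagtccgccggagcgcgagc
Usp11: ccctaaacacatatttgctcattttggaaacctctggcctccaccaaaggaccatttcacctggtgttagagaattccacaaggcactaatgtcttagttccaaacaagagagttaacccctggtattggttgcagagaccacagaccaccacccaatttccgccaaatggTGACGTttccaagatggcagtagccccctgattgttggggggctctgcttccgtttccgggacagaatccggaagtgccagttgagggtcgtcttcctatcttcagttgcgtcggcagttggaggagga
Usp13: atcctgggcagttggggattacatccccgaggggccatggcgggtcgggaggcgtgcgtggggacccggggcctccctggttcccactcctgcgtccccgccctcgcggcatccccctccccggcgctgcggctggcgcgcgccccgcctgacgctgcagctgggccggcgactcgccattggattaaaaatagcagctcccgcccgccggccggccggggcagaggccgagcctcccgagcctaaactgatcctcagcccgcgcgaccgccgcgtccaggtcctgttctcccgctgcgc
The window of Usp2 held 1 TGACGT core, starting 4 bases before the transcript start, and that of Usp11 held 1, starting 79 bases before it. The window of Usp13 held neither motif, and no E-box was found in any of the 7 windows of the 8 called genes. Among the windows not shown, that of Usp29 held 2 overlapping matches of the core, starting 7 and 9 bases after the transcript start. They are 1 palindromic site read on both strands. Those of Usp28, Josd2 and Usp10 held no core. Over all 32851 RefSeq windows, 7.15% held the E-box and 7.51% the TGACGT core on either strand. Among the 53 windows of the 49 tested members with one, 8 held the E-box (15.1%) and 13 the core (24.5%). The 32851 windows were not limited to tested genes, so these shares are not like for like. The difference was not tested. A match describes letters in the window and is no evidence of binding.

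Usp2 fell the most. It encodes a deubiquitinase with a daily rhythm that acts on components of the circadian clock, on Mdm2 and on cyclin D1. Aged 12 months, the WT/WT mice had 2309, 1970.2, 2581, 1916 and 2314 normalized counts, and the 304Q/304Q mice 1463, 1342, 1624, 1508 and 1658. Every 304Q/304Q mouse lay below every WT/WT mouse. The log2 fold change was -0.55 ± 0.09 (SE) with an adjusted p of 0.00011 in edgeR's quasi-likelihood test. It fell under 0.5 in size with surrogate variables (-0.40 in edgeR, -0.39 in DESeq2), with the GC trend removed (-0.48) and without replicate 3 of the 12-month WT/WT mice (-0.49), and stayed called in each. At 2 months the groups overlapped, at 1472 to 2056 for WT/WT and 1368 to 1663 for 304Q/304Q, with a log2 fold change of -0.19 ± 0.09 (adjusted p = 0.882). Between 2 and 12 months the mean of WT/WT mice went from 1726 ± 221 to 2218 ± 275 (SD, n = 5), and that of 304Q/304Q mice from 1517 ± 112 to 1519 ± 127.

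Usp11 rose. It is an X-linked deubiquitinase known from DNA repair, and it is a paralogue of Usp4 and Usp15. In WT/WT mice of 12 months there were 1152, 1241, 1331, 1389 and 1293 normalized counts, and in 304Q/304Q mice 1499, 1638, 1658, 1694 and 1713. The groups did not overlap, and the log2 fold change was 0.36 ± 0.06 (adjusted p = 0.000173). At 2 months the values were 1149 to 1349.6 for WT/WT and 1277 to 1449 for 304Q/304Q, which overlapped, and the log2 fold change of 0.15 ± 0.06 was not called (adjusted p = 0.801). Its paralogues had log2 fold changes of 0.08 ± 0.06 for Usp4 and -0.11 ± 0.07 for Usp15 at 12 months, with adjusted p of 0.344 and 0.364.

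Usp13 had the largest rise in size. It encodes a relative of Usp5 that is known to act on Beclin-1 in autophagy and on substrates of degradation at the endoplasmic reticulum. At 12 months the WT/WT mice had 334, 312, 313, 311 and 264 normalized counts and the 304Q/304Q mice 376, 405, 419, 364 and 492. The groups did not overlap, and the mouse highest in Usp13, replicate 5 of the 304Q/304Q mice, is the library with the high muscle markers. The log2 fold change was 0.42 ± 0.09 with an adjusted p of 0.00203, and without that mouse it was 0.34 with an adjusted p of 0.00785. At 2 months the means were 356 ± 19.4 and 356 ± 27.3 (SD, n = 5), a log2 fold change of 0.00 ± 0.09. Usp5 showed 0.03 ± 0.06 on that scale at 12 months, with a 95% interval of -0.08 to 0.14.

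Usp22 rose by less, from a high level. In the SAGA complex it removes ubiquitin from histone H2B, together with the subunits Atxn7, Atxn7l3 and Eny2, and Atxn7 is the gene expanded in another spinocerebellar ataxia. At 12 months the WT/WT mice had 2771, 2859, 2730.2, 3189.6 and 2771 normalized counts and the 304Q/304Q mice 3566, 3405, 3167, 3291 and 3557. Replicate 4 of the WT/WT mice stood above the lowest 304Q/304Q mouse, so the groups overlapped, and the log2 fold change was 0.25 ± 0.05 (adjusted p = 0.00174). Of the other genes of this module Eny2 rose, with a log2 fold change of 0.52 ± 0.12 (adjusted p = 0.00438). Atxn7 had 0.23 ± 0.11 (adjusted p = 0.164) and Atxn7l3 0.11 ± 0.05 (adjusted p = 0.199), and neither passed. Usp27x and Usp51, relatives of Usp22 that can use the same partners, were not called or not tested. At 12 months Usp27x averaged 74.6 ± 16.8 in the WT/WT and 96 ± 20.2 in the 304Q/304Q group (SD, n = 5), and its log2 fold change was 0.37 ± 0.18 with an adjusted p of 0.186.

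Usp29 was the fourth gene that rose. It is an imprinted gene next to Peg3, read from the paternal copy in brain. At 12 months the normalized counts were 269.5, 252, 255, 318 and 265 for the WT/WT and 347, 339, 309, 299 and 361 for the 304Q/304Q mice, and the groups overlapped through replicate 4 of the WT/WT mice. Its log2 fold change was 0.28 ± 0.08 (adjusted p = 0.0237), and the call was lost in 12 of 30 alternatives. Of its exon length 14.3% lies over Zim3 on the other strand, and whether the counting used the strand is not stated.

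**Figure D3:**
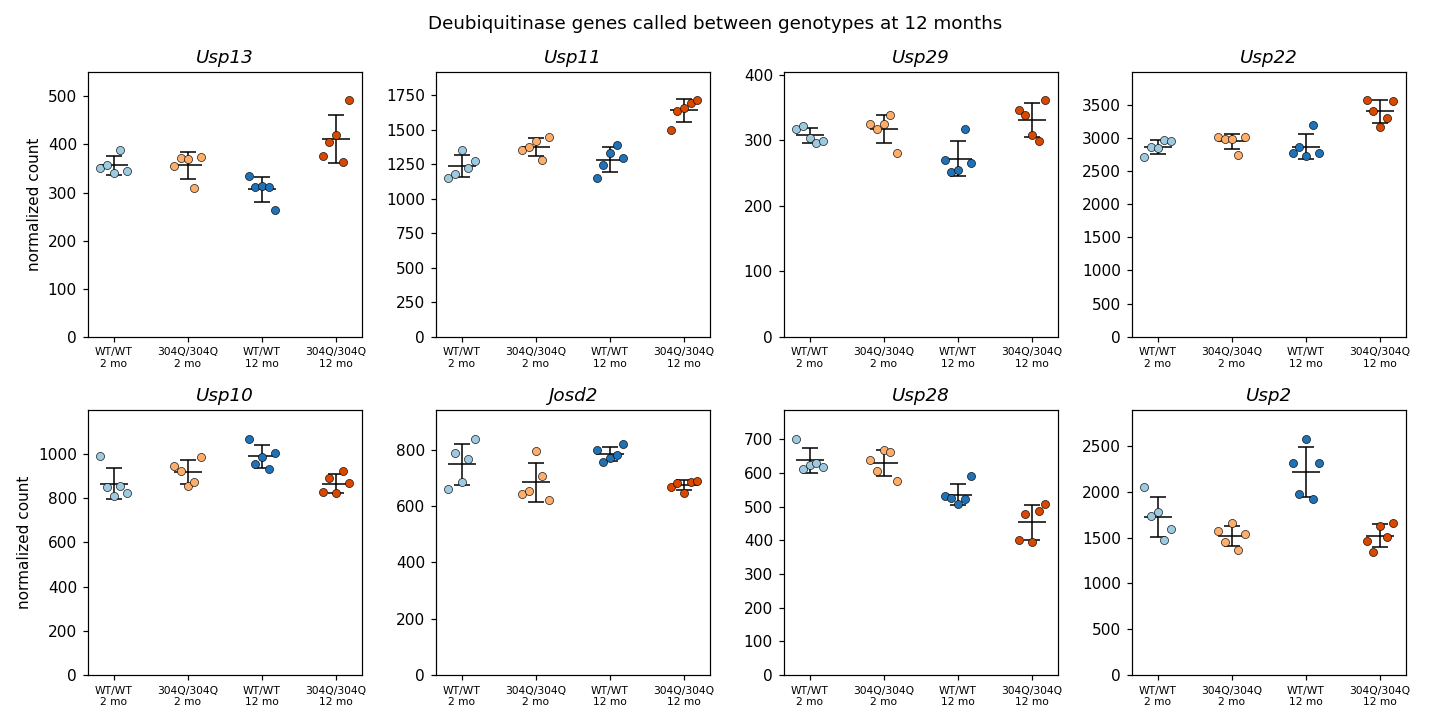
Normalized counts per mouse of the 8 deubiquitinase genes called between the genotypes at 12 months, in the 4 groups of 5 mice, with the mean and SD of each group and axes from 0. At 12 months the 304Q/304Q mice lie wholly above the WT/WT mice for Usp13 and Usp11 and wholly below them for Usp10, Josd2 and Usp2, and the groups overlap for Usp29, Usp22 and Usp28.

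Josd2 fell and Josd1 had the same sign without passing. Both encode small proteins that consist of little more than the Josephin domain, the catalytic fold they share with ataxin-3. For Josd2 at 12 months the WT/WT mice had 799.6, 756, 769.7, 779 and 820.5 normalized counts and the 304Q/304Q mice 667, 680.1, 646, 686 and 688. The groups were tight and did not overlap, and the log2 fold change was -0.22 ± 0.07 (adjusted p = 0.0426). This call was lost in 15 of 30 alternatives, among them removal of the GC trend, under which the log2 fold change was -0.12 (adjusted p = 0.268). Josd1 had 1002, 862, 1051, 869 and 1063 for WT/WT and 853, 839.6, 799, 905 and 918 for 304Q/304Q mice at that age. Its groups overlapped, and its log2 fold change was -0.17 ± 0.07, with a 95% interval of -0.30 to -0.03 and an adjusted p of 0.109. At 2 months neither was called, with log2 fold changes of -0.08 ± 0.07 for Josd1 and -0.13 ± 0.07 for Josd2.

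Usp28 and Usp10 fell. Usp28 is known to stabilize Myc and to act in the DNA damage response, and Usp10 removes ubiquitin from p53 and binds the stress granule protein G3bp1. At 12 months the normalized counts of Usp28 were 533, 527, 508, 523 and 591 for the WT/WT and 400.4, 479.6, 396, 486 and 509 for the 304Q/304Q mice, and 1 of the 304Q/304Q values overlapped with the WT/WT range. Those of Usp10 were 1070.3, 953, 988, 932 and 1005 for the WT/WT and 828, 889, 823, 922 and 867 for the 304Q/304Q mice, which did not overlap. The log2 fold changes were -0.24 ± 0.08 (adjusted p = 0.0403) and -0.19 ± 0.06 (adjusted p = 0.0455), and the calls were lost in 10 and 15 of 30 alternatives. For Usp10 the loss included DESeq2's size factors (adjusted p = 0.0513).

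The deubiquitinases bound to the proteasome were not called at 12 months. Usp14 had a log2 fold change of 0.14 ± 0.09 (95% interval -0.03 to 0.31), and Uchl5 one of 0.11 ± 0.08 (-0.04 to 0.26), with adjusted p of 0.308 and 0.383. With the GC trend removed both turned to the other sign, at -0.02 and -0.03. Of the exon length of Usp14, 26% lies over Thoc1 on the other strand. Uchl1 averaged 2115 ± 225 in the WT/WT and 2345 ± 208 in the 304Q/304Q group (SD, n = 5), which differed by 0.15 ± 0.08 on the log2 scale (adjusted p = 0.235), and Uchl3, its relative, had -0.15 ± 0.10 (adjusted p = 0.357).

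Genes for other cellular roles also stayed uncalled at 12 months. Usp7, which acts on p53 and Mdm2, had a log2 fold change of -0.02 ± 0.05 (95% interval -0.12 to 0.08), and Usp8, which sorts receptors at endosomes, had -0.04 ± 0.05 (-0.14 to 0.07). Usp19, anchored at the endoplasmic reticulum, had -0.05 ± 0.05 (-0.15 to 0.04), and Usp30, at the outer mitochondrial membrane, had 0.06 ± 0.07 (-0.07 to 0.19). Among these 4 no interval reached 0.2 in size. Cyld and Otud7b, which restrain NF-kB signalling, had 0.13 ± 0.07 (adjusted p = 0.208) and 0.01 ± 0.05 (adjusted p = 0.936), and Otub1 and Otud5, from the OTU series, had 0.01 ± 0.06 and -0.01 ± 0.05. None of the 9 OTU genes was called, too few to set against the 12.5% of all genes tested. Bap1 had -0.13 ± 0.05 (adjusted p = 0.139), Usp9x 0.09 ± 0.10 (adjusted p = 0.6) and Usp25, which also binds SUMO, 0.20 ± 0.09 (adjusted p = 0.139). The normalized counts of Usp35 were 286, 249, 285, 313 and 202 for the WT/WT and 314, 315, 345, 314 and 372 for the 304Q/304Q mice, and Usp3, a histone H2A deubiquitinase, had 1017 to 1358 and 954 to 1189.8. Usp35 did not overlap between the groups but was not called, with a log2 fold change of 0.31 ± 0.12 (adjusted p = 0.0924), and Usp3 overlapped and had -0.20 ± 0.11 (adjusted p = 0.253).

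The libraries differed in how counts ran with GC content, and this moved with the groups, with age in WT/WT mice as well as with genotype at 12 months. The slope of log2 counts on GC content lay between -0.0787 and 0.214 per 10 points of GC in the 12-month WT/WT mice, with a median of 0.140, and between -0.0729 and 0.0411 in the 304Q/304Q mice, with a median of -0.0254. At 2 months the medians were -0.130 for WT/WT and 0.00910 for 304Q/304Q. With the trend removed from each library, 8 of the 60 members were again called at 12 months. In that fit 12.8% of all genes were called, so the share of the members again lay near the background. Of the 8, Usp2, Usp11, Usp13, Usp22 and Usp28 were called in both fits. Usp29, Josd2 and Usp10 lost their calls, and Uchl1, Usp15 and Usp35 gained one. The median log2 fold change of the members went from 0.07 to 0.01. For Uchl1 the log2 fold change became 0.24 with an adjusted p of 0.0152, and for Usp15 it became -0.24 with an adjusted p of 0.0199.

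**Figure D4:**
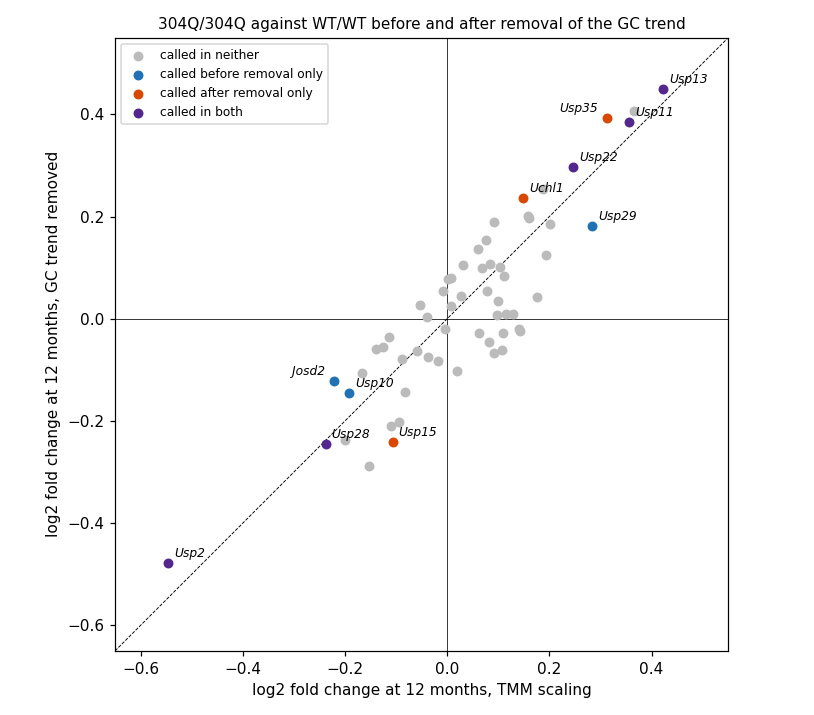
Log2 fold change at 12 months of 60 deubiquitinase genes with TMM scaling (horizontal) and after removal of the trend with GC content from each library (vertical), with the line of equal values dashed. The 5 genes called in both fits lie near the line, with Usp2 at -0.55 before and -0.48 after.

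With age, 3 deubiquitinases were called in both genotypes. In WT/WT mice 6 members (10%) were called between 2 and 12 months, against 11.5% of all genes tested, and in 304Q/304Q mice 6 members (10%), against 7.26%. Uchl1 and Otub2 rose and Usp28 fell in both. The share of all genes tested that was called in both genotypes was not computed, so these 3 stand without a background. Uchl1 had 1374, 1469, 1731, 1644 and 1562 normalized counts at 2 months and 1747, 2164, 2338, 2087 and 2236 at 12 months in WT/WT mice. In 304Q/304Q mice it had 1836, 1922, 1974, 1678 and 1561 at 2 months, against 2357, 2517, 2572, 2075 and 2206 at 12 months. The ages did not overlap in either genotype, with log2 fold changes of 0.44 ± 0.08 (adjusted p = 0.00131) and 0.39 ± 0.08 (adjusted p = 0.00272). Of its exon length 18.1% lies over the antisense gene Uchl1os.

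Otub2, an OTU deubiquitinase related to Otub1, ranged over 181 to 209 normalized counts at 2 months and 241 to 294 at 12 months for WT/WT, and over 181 to 211 and 229 to 273 for 304Q/304Q. Again the ages did not overlap, and in edgeR's quasi-likelihood test the log2 fold changes were 0.39 ± 0.09 (adjusted p = 0.00559) and 0.38 ± 0.09 (adjusted p = 0.00483). Usp28 ranged over 613 to 703 and 508 to 591 for WT/WT, and over 576 to 668 and 396 to 509 for 304Q/304Q, without overlap. Its log2 fold changes were -0.25 ± 0.07 (adjusted p = 0.0324) and -0.47 ± 0.08 (adjusted p = 0.000169). In WT/WT mice the call of Usp28 was lost in 10 of 30 alternatives, among them both fits with surrogate variables and the removal of the GC trend (adjusted p = 0.067), whereas in 304Q/304Q mice it held in all 30. Otub2 lost its call in WT/WT mice with surrogate variables in both tools, and Uchl1 kept its calls in both genotypes under all 30. Among the called members the fall of Usp28 in 304Q/304Q mice was the largest change with age in either genotype.

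The other calls with age were made in 1 genotype. In WT/WT mice Usp2 had 0.36 ± 0.09 (adjusted p = 0.00937), Otub1 0.21 ± 0.06 (0.0337) and Usp10 0.19 ± 0.06 (0.0486), all rising. With the GC trend removed none of these 3 was called (adjusted p = 0.0534, 0.117 and 0.155), and over the 30 alternatives the call was lost in 1 for Usp2, 12 for Otub1 and 22 for Usp10. Their log2 fold changes in 304Q/304Q mice were 0.00 ± 0.09, 0.18 ± 0.06 and -0.08 ± 0.06. In 304Q/304Q mice Usp11 rose with 0.25 ± 0.06 (adjusted p = 0.00659), Usp22 rose with 0.21 ± 0.05 (0.0107) and Usp15, a relative of Usp11 known from TGF-beta signalling, fell with -0.25 ± 0.07 (0.0373), a call lost in 8 of 30 alternatives. In WT/WT mice these genes had 0.05 ± 0.06, -0.00 ± 0.05 and -0.11 ± 0.07. The age comparison in WT/WT mice and the genotype comparison at 12 months share the 12-month WT/WT mice, so that the calls of Usp2, Usp10 and Usp28 in both rest in part on the same 5 libraries. The calls of Usp11, Usp22 and Usp28 with age in 304Q/304Q mice and with genotype at 12 months likewise share the 12-month 304Q/304Q mice. Whether the change with age differed between the genotypes is the interaction described next, and no member passed it. Without replicate 1 of the 12-month WT/WT mice 12 members were called with age in WT/WT mice, and without replicate 3 it was 3.

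**Figure D5:**
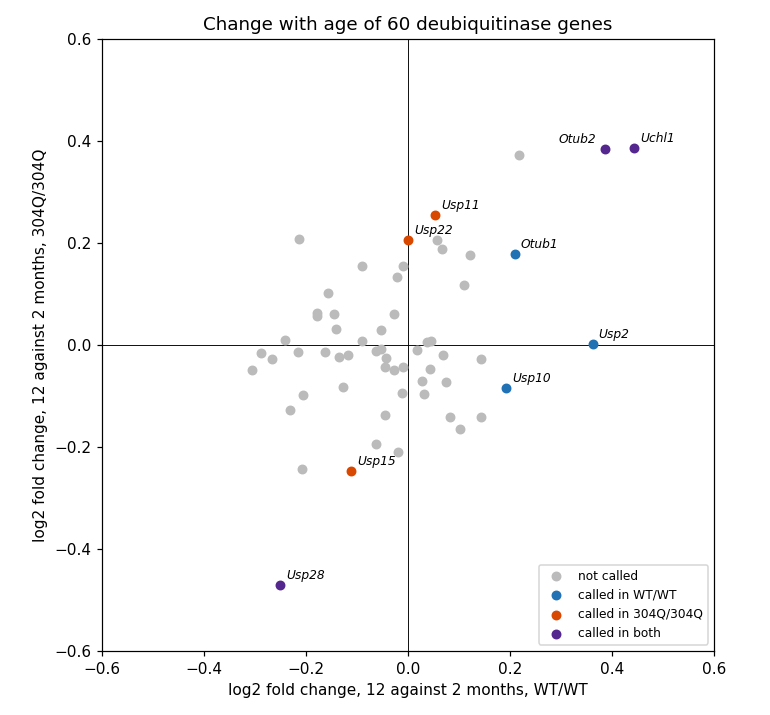
Log2 fold change between 2 and 12 months of 60 deubiquitinase genes in WT/WT mice (horizontal) and in 304Q/304Q mice (vertical), coloured by the genotype in which a gene was called. Uchl1 and Otub2 lie at the upper right and Usp28 at the lower left, whereas Usp2 lies at 0.36 for WT/WT and 0.00 for 304Q/304Q.

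Whether the effect of genotype itself changed with age was tested by the interaction of genotype and age. No member passed in edgeR's quasi-likelihood test, where 1.95% of all genes tested did, and 12 members had an unadjusted p under 0.05 (20%, against 15.9% of all genes tested). Usp13 came nearest, with a difference of 0.42 ± 0.12 between the log2 fold changes at 12 and at 2 months (adjusted p = 0.0771), followed by Usp10 with -0.28 ± 0.09 (0.118), Usp2 with -0.36 ± 0.12 (0.14) and Usp22 with 0.21 ± 0.07 (0.145). DESeq2 called Usp13 alone, and with surrogate variables it called Usp13, Usp10 and Usp22. With the GC trend removed edgeR called Usp22 (0.26, adjusted p = 0.0369). Without replicate 1 of the 12-month WT/WT mice edgeR called Usp13. Over all 5 comparisons 12 of the 60 genes (20%) were called in at least 1, against 22.4% of all genes tested, and 48 in none.

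The 6 genes under the limit of 50 counts were not tested. Usp18, which removes the ubiquitin-like protein ISG15 and is induced by interferon, had 9.14, 2.09, 24.1, 7.44 and 7.47 normalized counts at 2 months for the WT/WT and 13.9, 7.51, 14.6, 12.2 and 15.9 for the 304Q/304Q mice. At 12 months it had 16.7, 32.7, 36.3, 47.1 and 21.1 in the former and 28.8, 72, 31.3, 44.7 and 17.1 in the latter. The 12-month values lay mostly above the 2-month values in both genotypes, and the genotypes overlapped at both ages. Usp51 had 8 to 49 raw counts per library, Usp50 0 to 35 and Usp43 0 to 19. Uchl4 was at 0 in 10 of 20 libraries and Usp44 in 13, and neither exceeded 3 counts in any.

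Other genes of the ubiquitin system were looked at as lists, whose counts at 12 months stand against 12.5% of all genes tested. Of 26 tested genes outside the name rule, listed as deubiquitinases or related genes, 1 was called at 12 months. It was Desi1, with a log2 fold change of -0.22, a protein better known for removing SUMO. None of 3 tested ubiquitin genes was called. Of 32 activating and conjugating enzymes 1 was called, Cdc34 with -0.28, which builds ubiquitin chains with SCF ligases. Of 25 partners that activate or house the members 2 were called, both higher, Eny2 with the value above and Stam2, the endosomal partner of Usp8, with 0.42 ± 0.14 (adjusted p = 0.0436). The median log2 fold changes of these lists at 12 months were -0.02, -0.14, -0.000461 and 0.05, against -0.00386 over all genes tested.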

How the data were processed

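Cerebellar RNA-seq of 20 mice in 4 groups of 5 was used. Reads had been mapped to GRCm38 by STAR and assigned to genes by Rsubread, and the authors deposited the raw counts of 29200 Ensembl genes. The kit keeps the strand, but whether the counting used it is not given in the sources used here. Symbols and positions came from GENCODE M21, which named 29150 of the rows. The labels name ataxin-2 for the wild-type alleles where the design text has ataxin-3. The annotation holds 74 genes of the rule, 8 of which were not analysed here.

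Counts were scaled by TMM and tested with edgeR 4.0.16 (R 4.3.3), quasi-likelihood, in 1 model of the 4 groups over the 12153 genes averaging 50 or more counts, with Benjamini-Hochberg adjustment. The named genes were those called between genotypes or in the interaction, the 4 largest changes per direction at 12 months, up to 6 called per direction with age, a set chosen by function, and the extremes of level. Members and lists were chosen with earlier results of these data known. Alternatives were DESeq2 1.42.0, 3 surrogate variables (sva 3.50.0), other filters and scalings, a replicate block and each mouse left out. On simulated counts for the 12-month comparison over 12153 genes, edgeR called 39 of 50 genes changed by 0.5 on the log2 scale, 16 of 50 changed by 0.32, and 8 unchanged ones. Every pair of replicates differed beyond sampling noise (chi-square over its degrees of freedom at least 4.43). Equal replicate numbers gave no ground to pair the mice.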

Additional observations from a re-analysis of the deposited data

Results flagged for a closer look

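In 12 of 128 groups of 5 mice looked at for the named members, 1 mouse stood far from the other 4, by Dixon's test at its 95% critical value. Chance flags about 1 in 20 groups. Replicate 1 of the 2-month WT/WT mice was the highest of its group in 3 of them, with normalized counts of 703 for Usp28, 989.7 for Usp10 and 1077 for Josd1. Replicate 4 of the 12-month WT/WT mice was the highest in another 3, with 3189.6 for Usp22, 318 for Usp29 and 104 for Usp27x, and for Usp22 and Usp29 it is the mouse through which the genotypes overlap at 12 months. In the 12-month WT/WT mice Usp30 reached 795 in replicate 3 and Cyld 1452 in replicate 1. In the 2-month 304Q/304Q mice Usp22 was lowest in replicate 4, at 2744, and Otub2 was highest in replicate 3, at 211, Usp15 in replicate 1, at 1456, and Cyld in replicate 5, at 1327.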

How the results depend on the processing

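The log2 fold changes of the members named in the text reversed no call under any alternative that was run. At 12 months the count of 8 members called became 1 with a log2 fold change of at least 0.5 as well, 4 with no filter on low counts and 5 with only the groups compared, and ran from 4 to 8 with 1 mouse left out. It was 5 without replicate 3 and 4 without replicate 5 of the 12-month WT/WT mice, and 5 on leaving out replicate 1, 2 or 3 of the 12-month 304Q/304Q mice. The calls of Usp2, Usp11, Usp13 and Usp22 held in all 30 alternatives other than the fold threshold, including those that left out a 12-month mouse. With age in WT/WT mice, 6 became 0 with the fold threshold, 3 with surrogate variables in edgeR, 3 with no filter and 3 with the GC trend removed (Uchl1, Otub2 and, newly, Cyld), and 3 to 12 with 1 mouse left out, the 12 without replicate 1 and 3 without replicate 3 of the 12-month WT/WT mice. With age in 304Q/304Q mice, 6 became 0 with the fold threshold, 5 to 8 with 1 mouse left out and 5 to 9 in the other alternatives. With the GC trend removed it was 8, the same 6 and, newly, Cyld and Otub1. In that fit 8.08% of all genes were called with age in WT/WT mice and 8.63% in 304Q/304Q mice. For the interaction, 0 became 1 in DESeq2, 3 in DESeq2 with surrogate variables, 1 in edgeR with surrogate variables and 1 with the GC trend removed, and 0 to 1 with 1 mouse left out, the 1 being Usp10 without replicate 1 of the 2-month and Usp13 without replicate 1 of the 12-month WT/WT mice. The cause of these shifts was not tested, save that the fold threshold can only remove calls. At 2 months the count was 0 throughout, 0 to 0 with 1 mouse left out. The removal of the GC trend, alone and with the replicate block, was chosen after seeing the data.

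Equal replicate numbers mostly did not deviate together (correlations from -0.333 to 0.562, median -0.0465, 6 of 30 above 0.1), so the main fit pairs no mice. Shared litters or handling were not tested. With the replicate block 6 members were called at 12 months, 5 and 6 with age in WT/WT and 304Q/304Q mice, and 0 at 2 months and in the interaction. With the block and the GC trend removed, 8 were called at 12 months. The depth leaves the 6 members under 50 counts untested, and for the others the spread between mice sets the precision. In the simulated counts edgeR called 16 of 50 genes changed by 0.32 on the log2 scale. There 11953 of 12153 genes were unchanged, whereas 1523 were called in the data at 12 months. This share therefore sets no limit for the members. Usp22, Usp29, Usp28, Josd2 and Usp10 were called at 12 months with changes under 0.3 in size.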
